A study of Saccharomyces cerevisiae with 21 samples.

Results

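Ribosome-protected fragments (RPFs) of 6 yeast genes were followed through glucose loss, out of 5767 genes listed in at least 1 library. PMA1 (YGL008C) and PMA2 (YPL036W) encode the plasma membrane proton pump, and PMP1 (YCR024C-A) and PMP2 (YEL017C-A) its small membrane partners. HSP30 (YCR021C) is a stress-induced regulator of the pump, and MRH1 (YDR033W) was included as a relative of HSP30. The genes were chosen by identity, with the higher HSP30 reads at 15 min in the CHX-pretreated libraries already known, so values of that comparison are given below as description and without a test. All cells were BY4741, a wild-type haploid laboratory strain that carries deletions in HIS3, LEU2, MET17 and URA3, and no library comes from a mutant. Cultures were grown with glucose to log phase or moved to synthetic complete medium without glucose (-Glu). The pretreated experiment, with 2 libraries of 15 min -Glu and 2 of log phase, gave cells cycloheximide (CHX), which arrests elongating ribosomes, for 1 min before collection. A time course without pretreatment held 2 libraries each of log phase and of 1, 5 and 15 min -Glu, 1 each of 10, 20 and 30 min, and 1 matched 15 min library with 1 min of CHX. A multi-day experiment in rich YPD medium held 1 library each of log phase, 1 day (past the diauxic shift, when the glucose has been used up) and 5 days (stationary phase). Whether replicates came from separate cultures is not stated, so p-values measure only the spread between these libraries, which the fits estimate partly from all genes together. Groups of 2 against 2 libraries are also described below by whether they overlap. An exact test of such groups gives no p under 0.333, and the share of all genes that separate in this way was not counted.

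PMA1 is the essential ATPase that pumps protons out of the cell at the cost of ATP, and the gradient it builds drives the uptake of nutrients. Glucose activates the enzyme and its loss turns the activity down, which is why pump regulators are of interest in starvation. PMA2 is a minor second copy of the pump. PMP1 and PMP2 are very small membrane proteins that copurify with the pump and raise its activity. HSP30 is a membrane protein induced by heat, weak acids and stationary phase that restrains the pump under stress. MRH1 is a relative of HSP30 in the plasma membrane that growing cells make in quantity, and YRO2 is the third yeast member of that family.

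The libraries differed in depth and in the reads listed for near-identical genes, and both touch the results. Gene reads came to 1862525 to 5170260 per pretreated library and 169545 to 652361 per multi-day library. In the time course, 5 libraries (replicate 1 of log phase, 1, 5 and 15 min, and the matched CHX library) held 3523240 to 7896332 reads, and the other 7 held 71816 to 135958. The deleted markers LEU2, MET17 and URA3 stayed at or below 13.9 CPM, a gene's reads scaled to a common total of gene reads per library, in all 19 libraries, and HIS3, whose deletion is partial, at or below 128 CPM. EFT1 and EFT2, 2 copies of the elongation factor 2 gene that were picked after their values were seen, are identical at 99.8% of bases. They summed to 10688 to 15424 CPM in the time course, against 332 to 475 CPM in the pretreated and 76.7 to 472 CPM in the multi-day libraries.

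The coding sequences of PMP1 and PMP2 are shown first because a read of a footprint's length can fit both genes. PMP1 lies at chrIII:162945-163067 (minus strand) and PMP2 at chrV:122798-122929 (minus strand) of genome build R64, each a single exon with no overlapping gene. Both are written 5′ to 3′ from start to stop codon, from the RefSeq copy of R64, with bases that are identical in a global alignment in capitals.
PMP1: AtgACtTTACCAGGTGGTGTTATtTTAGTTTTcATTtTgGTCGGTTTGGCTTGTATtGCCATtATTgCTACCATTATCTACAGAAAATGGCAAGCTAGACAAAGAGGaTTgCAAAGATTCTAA
PMP2: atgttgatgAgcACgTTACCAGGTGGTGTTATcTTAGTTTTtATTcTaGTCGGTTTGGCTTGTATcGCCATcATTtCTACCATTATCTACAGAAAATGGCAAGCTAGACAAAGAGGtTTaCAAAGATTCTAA
The alignment paired 123 bases, of which 111 (90.2%) were identical, and 95% of the encoded residues were identical over proteins of 40 and 43 residues. Of the 96 windows of 28 bases in PMP1, 13 (13.5%) occurred also in PMP2. The remaining windows of 28 bases differ by at least 1 base. At 17 bases, the shortest read kept in the time course and multi-day experiments, 26 windows of PMP2 (22.4%) occurred also in PMP1.

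PMA1 and PMA2 also share sequence, and the longest run they share shows where their reads cannot be told apart. PMA1 lies at chrVII:479910-482666 (minus strand) and PMA2 at chrXVI:482843-485686 (plus strand), both single exons. The lines give that run in capitals with 15 bases on each side, at chrVII:480334-480437 (minus strand) in PMA1 and chrXVI:485159-485262 (plus strand) in PMA2.
PMA1: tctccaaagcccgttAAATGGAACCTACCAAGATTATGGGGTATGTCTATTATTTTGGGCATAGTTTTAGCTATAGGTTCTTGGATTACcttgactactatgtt
PMA2: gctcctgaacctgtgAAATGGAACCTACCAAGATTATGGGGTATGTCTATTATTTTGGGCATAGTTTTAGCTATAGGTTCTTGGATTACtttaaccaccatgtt
The run is 74 bases long and holds only part of the shared windows. The coding sequences were identical at 81.9% of 2756 aligned bases and the proteins at 89.6% of residues, and 130 windows of 28 bases (4.76% of those in PMA1 and 4.61% of those in PMA2) were shared. Of these shared windows, 98.5% lay beyond the midpoint of the gene, towards the 3′ end. At 17 bases, the shortest read kept in the time course and multi-day experiments, 291 windows of PMA2 (10.3%) occurred also in PMA1. HSP30 shared no 28-base window with another place in the genome, and MRH1 shared 5 of 936 with YRO2.

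The start regions of HSP30 and PMA2 are shown because these were the genes of the set with the largest differences in level after days of growth. Each line runs from 250 bases before the coding sequence to 50 bases into it, with the start codon and any match to the stress response element AGGGG or the heat shock element GAANNTTC, searched on both strands, in capitals. HSP30 is read from chrIII:157058-157357 (minus strand) and PMA2 from chrXVI:482593-482892 (plus strand), again from the RefSeq copy of R64.
HSP30: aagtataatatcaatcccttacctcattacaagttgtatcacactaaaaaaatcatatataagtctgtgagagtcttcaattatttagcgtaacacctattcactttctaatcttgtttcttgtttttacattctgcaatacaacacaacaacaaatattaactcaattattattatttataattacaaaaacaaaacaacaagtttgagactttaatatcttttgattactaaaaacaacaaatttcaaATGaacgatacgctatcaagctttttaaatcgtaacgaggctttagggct
PMA2: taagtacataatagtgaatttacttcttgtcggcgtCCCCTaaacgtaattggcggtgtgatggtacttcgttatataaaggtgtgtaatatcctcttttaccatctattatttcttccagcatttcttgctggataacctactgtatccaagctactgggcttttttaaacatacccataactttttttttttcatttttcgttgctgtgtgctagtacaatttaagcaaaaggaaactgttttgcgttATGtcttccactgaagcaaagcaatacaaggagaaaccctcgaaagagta
PMA2 held 1 match to AGGGG, read as CCCCT, 214 bases before its start codon, and HSP30 held none of either motif in this window. Of 5761 such windows in the genome, 21.7% held AGGGG and 12.05% held the heat shock element. PMA1, PMP1, PMP2, MRH1 and YRO2 had no match in theirs.

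Per length, PMA1 had the highest mean level of the set in log phase of each experiment. PMP2 had the next highest mean, though not the next highest level in each library. Levels between genes are compared as TPM, the same scaling after reads are divided by coding length. In pretreated log phase the TPM levels were 3637 ± 52.4 for PMA1, 3184 ± 609 for PMP2, 2687 ± 966 for PMP1, 1090 ± 277 for MRH1, 2.70 ± 0.42 for PMA2 and 2.61 ± 1.13 for HSP30 (mean ± SD, n = 2). There PMA1 stood above PMP2 and PMP2 above PMP1 in both libraries, though each pair of means differed by less than its larger SD. The means of PMA2 and HSP30 also differed by less than their SD. The order of the rest changed with the experiment. MRH1 stood above PMP1 in log phase of the time course, at 1215 ± 4.44 against 842 ± 23.3 TPM (n = 2), and in YPD log phase, at 1646 against 1210 TPM in 1 library. PMP2 had 1327 ± 726 TPM in log phase of the time course (n = 2). In the deep library there it had 814 TPM, below MRH1 at 1211 TPM and PMP1 at 826 TPM. In pretreated 15 min -Glu, HSP30 stood at 535 ± 245 TPM and PMP1 at 700 ± 686 TPM, below MRH1 at 1041 ± 221 TPM and above PMA2 at 7.40 ± 4.14 TPM (n = 2). Ranked among 5761 genes by TPM, HSP30 stood at places 260 and 476 at 15 min, against 4990 and 4931 in log phase.

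**Figure D1:**
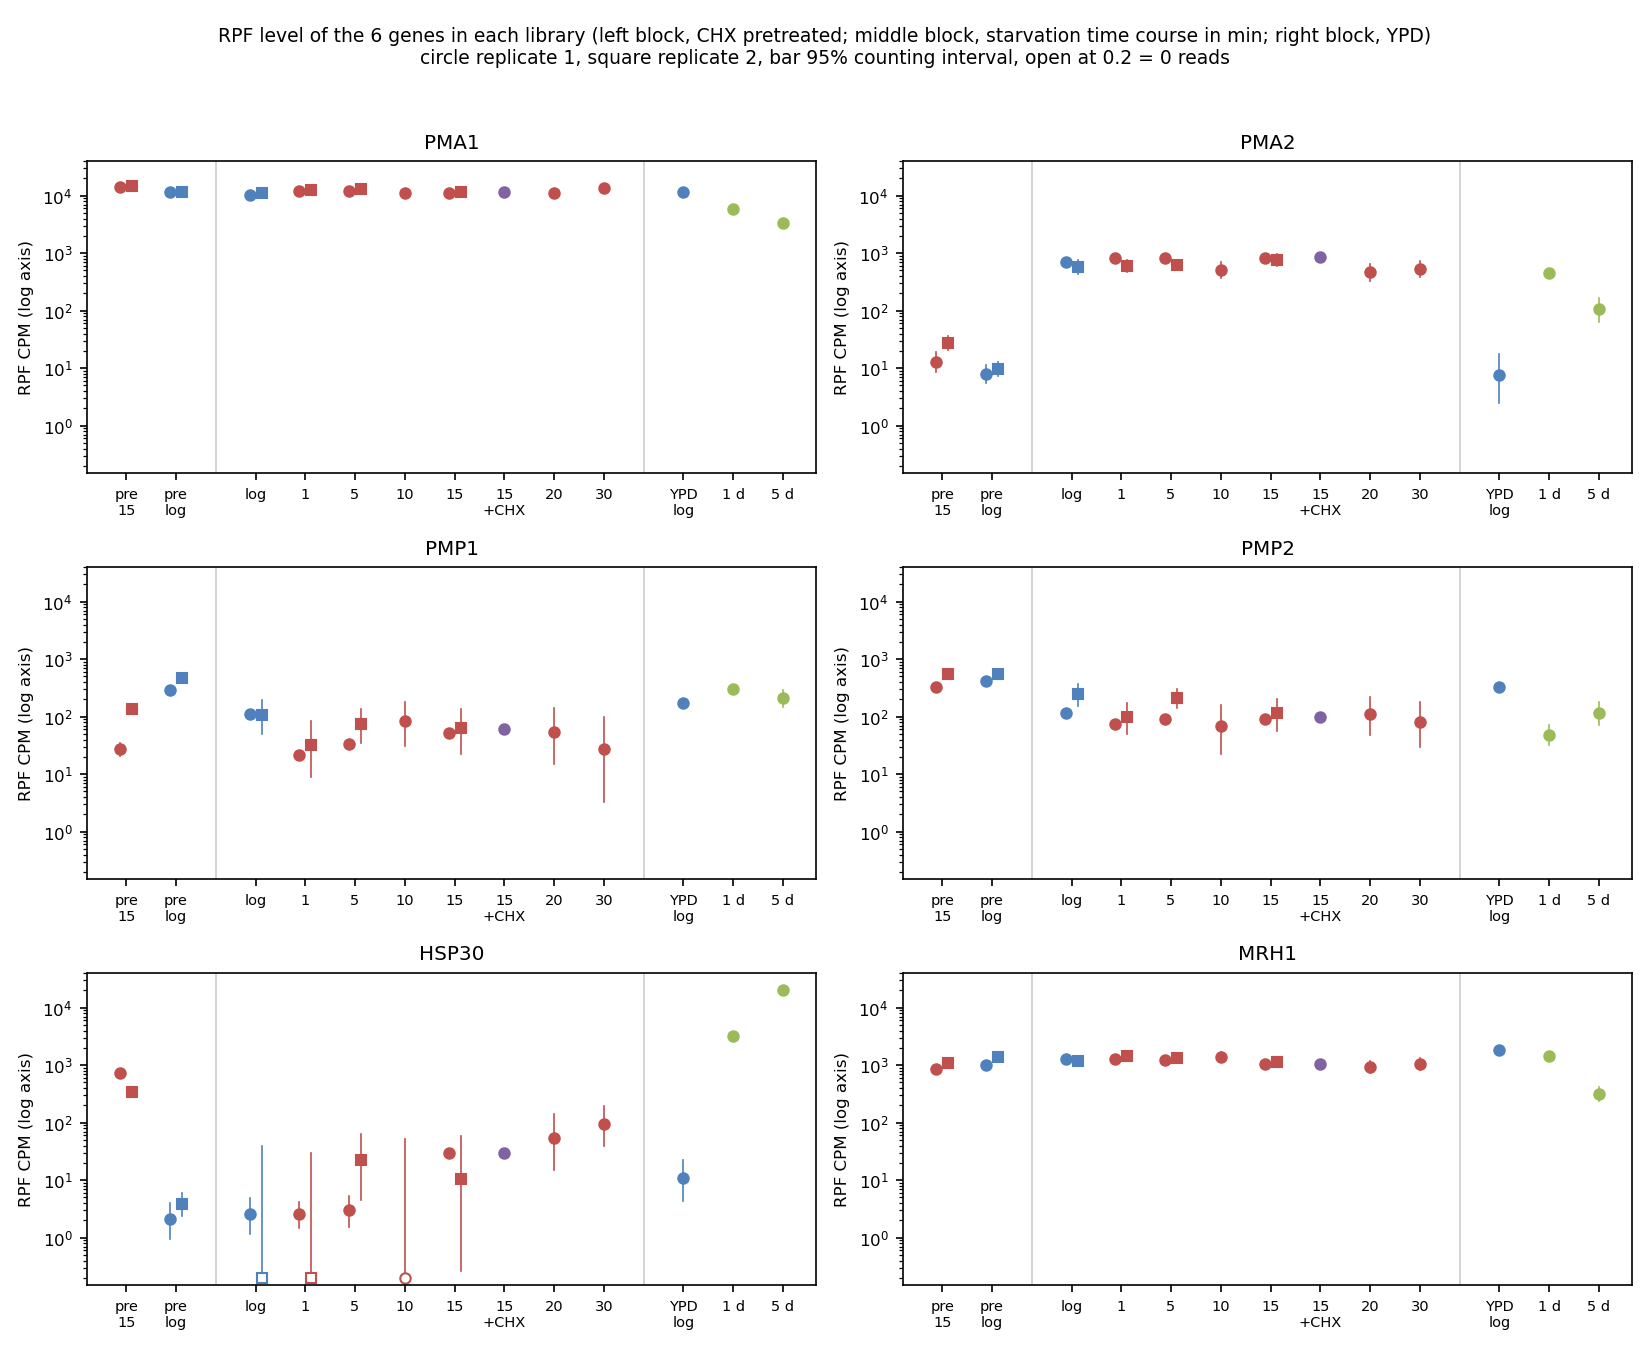
RPF level (CPM, log axis) of the 6 genes in each of the 19 libraries, with 95% exact binomial intervals that cover counting error only. PMA1 stays between 10376 and 14661 CPM in every library of synthetic medium, while HSP30 spans 0 to 723 CPM there and reaches 20484 CPM after 5 days in YPD.

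PMA1 reads remained near 1% of all gene reads through acute starvation. In the time course PMA1 took 1.04% and 1.11% of reads in log phase, 1.21% and 1.26% at 1 min, 1.19% and 1.33% at 5 min, and 1.12% and 1.17% at 15 min. The single libraries gave 1.11% at 10 min, 1.11% at 20 min and 1.37% at 30 min. Both libraries of each starved time stood above both log phase libraries, by little. The log2 fold change in edgeR was 0.20 (SE 0.13) at 1 min, 0.24 (SE 0.13) at 5 min and 0.10 (SE 0.13) at 15 min, with edgeR quasi-likelihood adjusted p of 1.00, 1.00 and 0.999. In the pretreated libraries PMA1 took 1.39% and 1.47% of reads at 15 min, against 1.16% and 1.15% in log phase, a log2 fold change of 0.32 (SE 0.42) given without a test. The values are shares of a library made from a whole culture, so less RNA per cell, fewer cells and fewer ribosomes on all mRNAs cannot be told apart in them.

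MRH1 (chrIV:508147-509109, plus strand) was not called for read counts at any time. It had 1255 and 1174 CPM in log phase of the time course, 1297 and 1465 CPM at 1 min, 1205 and 1317 CPM at 5 min and 1031 and 1140 CPM at 15 min. The 15 min libraries were both below the log phase libraries, and those at 1 min were both above them. The log2 fold changes were 0.17 (SE 0.17), 0.06 (SE 0.17) and -0.16 (SE 0.17), none called by edgeR (adjusted p 1.00, 1.00 and 0.999). In the pretreated libraries MRH1 had 871 and 1075 CPM at 15 min, against 1003 and 1405 CPM in log phase, and these ranges overlapped. Between same-numbered libraries it was lower at 15 min both times, with ratios of 0.868 (95% counting interval 0.820 to 0.918) and 0.765 (0.728 to 0.804). Per length MRH1 stood far above HSP30, its relative at 34.7% of aligned residues, in pretreated log phase.

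PMP1 had fewer reads at every starved time than in log phase, and the gap between replicated groups was widest at 1 min. It had 109 and 106 CPM in log phase of the time course (385 and 10 reads), 21.2 and 32.7 CPM at 1 min (130 and 4 reads), 33.6 and 73.6 CPM at 5 min (135 and 10 reads), and 51.6 and 62.2 CPM at 15 min (260 and 6 reads). The single libraries gave 83.5, 54.7 and 27.4 CPM (6, 4 and 2 reads) at 10, 20 and 30 min. No starved library reached either log phase library. The counting intervals at 10 and 20 min (up to 182 and 140 CPM) did reach above both log phase levels. So did those of the shallow 5 and 15 min libraries (up to 135 CPM each), while those of the 30 min and the shallow 1 min library did not. Between the deep libraries alone the 1 min level was 5.17-fold lower than log phase (95% counting interval 4.22 to 6.35), the 5 min level 3.25-fold lower (2.67 to 3.99) and the 15 min level 2.12-fold lower (1.81 to 2.49). The log2 fold change was -2.25 (SE 0.37) at 1 min, -1.37 (SE 0.35) at 5 min and -0.96 (SE 0.34) at 15 min, with edgeR adjusted p of 0.0532, 0.215 and 0.772. Without the deep 5 min library the 5 min value was -0.64. Of all 5255 genes tested, 0% were called at 1 min, 0% at 5 min and 0.152% at 15 min, and 0 of the 6 members, with 132, 225 and 236 genes at an unadjusted p under 0.05 and 22, 66 and 43 genes called by DESeq2. At 1 min PMP1 was called with DESeq2 size factors in edgeR, without the low count filter and with only both groups in the fit, at log2 fold changes of -2.30, -2.25 and -2.30.

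Blocking on replicate number changed the calls. Replicate numbers were taken as pairs in the time course, since same-numbered libraries deviated together in every pair of times. The number also separates the deep from the shallow libraries at each of these times, so depth and a shared culture cannot be told apart in this. At 1 min PMP1 then fell by 2.31 on the log2 scale (SE 0.22, edgeR adjusted p 4.34e-22). At 5 min it fell by 1.56 (SE 0.22, adjusted p 1.62e-10), and at 15 min it fell by 0.98 (SE 0.20, adjusted p 0.00011). With 2 libraries per group these p-values rest largely on a spread estimated over many genes, not on that of PMP1 alone. The shallow libraries of these pairs held only 4 to 10 PMP1 reads. In this fit 3.06% of genes were called at 1 min, 4.49% at 5 min and 5.56% at 15 min. PMP2 fell by 0.74 at 1 min (SE 0.22, adjusted p 0.0244) and was not called at 5 or 15 min. The authors' sample key puts the 15 min replicates in the opposite sequencing pools to their numbers, and with the pool as the block none of the 6 members was called at any time.

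PMP2, the close copy, had 116 and 243 CPM in log phase of the time course, 75.0 and 98.2 CPM at 1 min, 91.6 and 213 CPM at 5 min, and 91.6 and 114 CPM at 15 min. Of the replicated times, 1 and 15 min had both libraries below both log phase libraries. Without the block the log2 fold changes were -0.94 (SE 0.41), -0.22 (SE 0.40) and -0.64 (SE 0.41), with edgeR adjusted p of 1.00, 1.00 and 0.999. They depended on the log phase library kept, with -1.62 at 1 min and -1.28 at 15 min without replicate 1, and -0.55 and -0.25 without replicate 2. In the pretreated libraries PMP2 had 325 and 553 CPM at 15 min, against 424 and 541 CPM in log phase, so the groups overlapped, with ratios of 0.767 and 1.02 between same-numbered libraries. PMP1 had 27.0 and 136 CPM at 15 min, against 287 and 470 CPM in log phase, and the groups did not overlap. That is a log2 fold change of -2.29 (SE 0.59) for PMP1 and -0.16 (SE 0.28) for PMP2, given without a test. PMP1 thus took 7.67% and 19.7% of the reads on the pair in pretreated 15 min -Glu, against 40.4% and 46.5% in log phase. The size for PMP1 differed by replicate, at -1.64 without replicate 1 of 15 min and -3.60 without replicate 2.

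PMA2 held far more reads in the time course than in pretreated cells or YPD log phase. It had 465 to 860 CPM in the 12 time course libraries, or 3.76% to 6.94% of the reads on both pump genes. In the 4 pretreated libraries it had 12.997 and 27.4 CPM at 15 min, against 7.96 and 9.67 CPM in log phase, at most 0.186% of the pump reads. The libraries with many PMA2 reads were also those with many reads on EFT1 and EFT2, except the 1 and 5 day libraries, and the part of reads shared with PMA1 in the PMA2 levels was not tested. The polarity of PMA2 in the time course, 0.27 to 0.44, lay towards the 3′ end. An even cover of the windows shared with PMA1 would give 0.45. PMA2 also leaned 3′ where it had few reads, at 0.13 and 0.12 in pretreated log phase and 0.20 and 0.23 at 15 min. In YPD it scored -0.19 in log phase (5 reads), 0.29 at 1 day and 0.10 at 5 days (18 reads). Whether the shared windows add to the lean was not tested. In pretreated log phase 96.3% and 95.4% of scored genes lay lower, against 95.3% and 89.4% in log phase of the time course. The log2 fold changes of PMA2 at 1, 5 and 15 min, 0.17 (SE 0.25), 0.20 (SE 0.25) and 0.32 (SE 0.25), were not called by edgeR (adjusted p 1.00, 1.00 and 0.999).

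**Figure D2:**
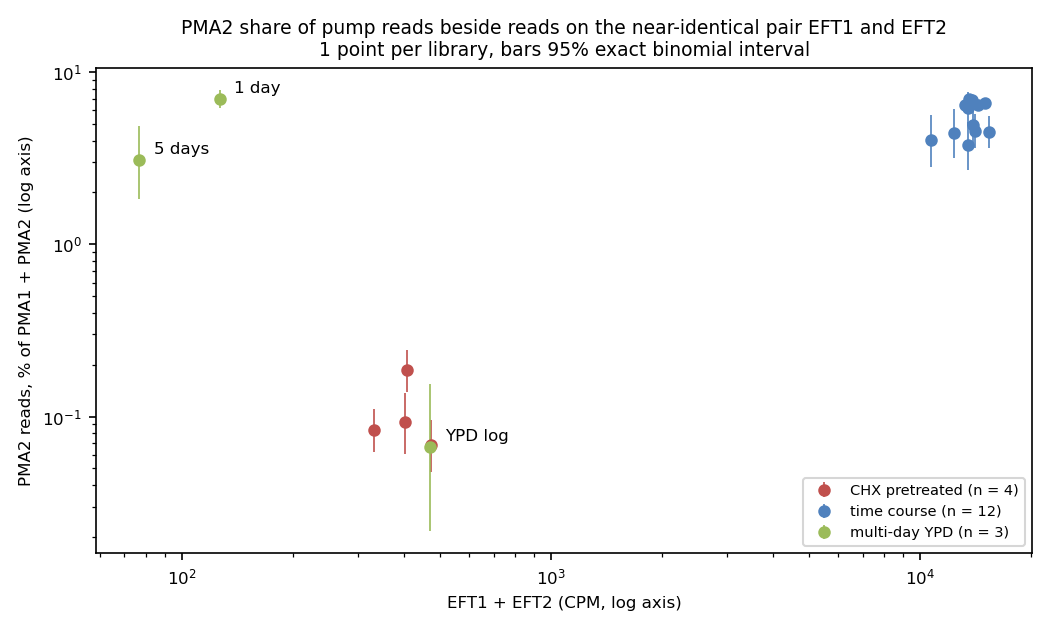
PMA2 reads as a percent of PMA1 plus PMA2 reads (log axis) against the summed CPM of EFT1 and EFT2 (log axis), 1 point per library with 95% exact binomial intervals. The 12 time course libraries sit together at 3.76% to 6.94% and at 10688 CPM or more, the 4 pretreated libraries and YPD log phase at 0.186% or less, and the 1 day library at 6.98% with 127 CPM.

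HSP30 (chrIII:156109-157107, minus strand) had hardly any reads in growing cells and more by 15 min of starvation. In the time course it had 9 and 0 reads in log phase, 16 and 0 at 1 min, 12 and 3 at 5 min, and 151 and 1 at 15 min. In the deep libraries these are 2.55, 2.603, 2.99 and 29.9 CPM, so the level at 15 min was 11.7-fold that of log phase (95% counting interval 6.01 to 26.1), while the 1 and 5 min levels were 1.02-fold (0.424 to 2.62) and 1.17-fold (0.452 to 3.14). The second replicates could not show this difference, because 3 reads in their log phase library are 31.7 CPM, more than the deep 15 min library had. The log2 fold change was 3.47 (SE 0.86) at 15 min with an edgeR adjusted p of 0.218. Under the replicate block HSP30 rose by 3.56 (SE 0.58, edgeR adjusted p 1.31e-07), but with the pool as the block the value was 2.27 (SE 1.06, adjusted p 1.00) and the call was lost. Without any 1 of the 4 deep libraries in this fit HSP30 did not pass the filter on low counts, so its value without them is not known. That filter uses the same libraries as the test, and HSP30 stood at only 2.55 and 0 CPM in log phase. HSP30 thus entered the test through its higher levels in starved libraries, which its p-values do not take into account. Of its reads at 15 min and in log phase, all but 1 came from the deep libraries. At 1 and 5 min the log2 fold changes were 0.03 (SE 0.96) and 0.90 (SE 0.99), not called with edgeR (adjusted p 1.00 for both).

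The later single libraries carried few HSP30 reads. They held 0 reads (interval up to 51.4 CPM) at 10 min, 4 reads (54.7 CPM, interval 14.9 to 140) at 20 min and 7 reads (96.0 CPM, interval 38.6 to 198) at 30 min. The 30 min interval lay above that of the deep 15 min library (25.4 to 35.1 CPM). These intervals cover counting error only, and there is no replicate at these times.

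The matched library shows HSP30 with and without CHX at the same starvation time. This sets 1 library against 1, and the authors' sample key places them in different sequencing pools. HSP30 had 30.1 CPM (238 reads) in the 15 min library with 1 min of CHX, against 29.9 CPM (151 reads) in the deep 15 min library without it, a ratio of 1.01 (95% counting interval 0.817 to 1.24). PMA1, MRH1 and PMP2 gave ratios of 1.04, 1.02 and 1.06, and PMP1 1.20 (interval 1.03 to 1.40). In the earlier pretreated experiment HSP30 had 723 and 337 CPM at 15 min, against 2.11 and 3.87 CPM in log phase. These groups did not overlap, and the log2 fold change was 7.53 (SE 0.65), given without a test. The 15 min effect on HSP30 was 3.96 (SE 0.99) larger on the log2 scale in the pretreated experiment than in the time course, also given without a test, but -1.89 without the deep log phase library of the time course, since the one left has 0 HSP30 reads. The experiments differ in library preparation, read lengths kept and batch as well as in pretreatment, which cannot be told apart here. For the other 5 members the difference of the 15 min effects was not called by edgeR, from -1.37 (SE 0.72, adjusted p 0.575) for PMP1 to 0.79 (SE 0.43, adjusted p 0.605) for PMA2, where 0.614% of 5377 genes were called. Without replicate 2 of pretreated 15 min the difference for PMP1 was -2.64 and was called (edgeR adjusted p 0.0291). With the replicate block 4.41% of genes and none of these 5 members were called.

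**Figure D3:**
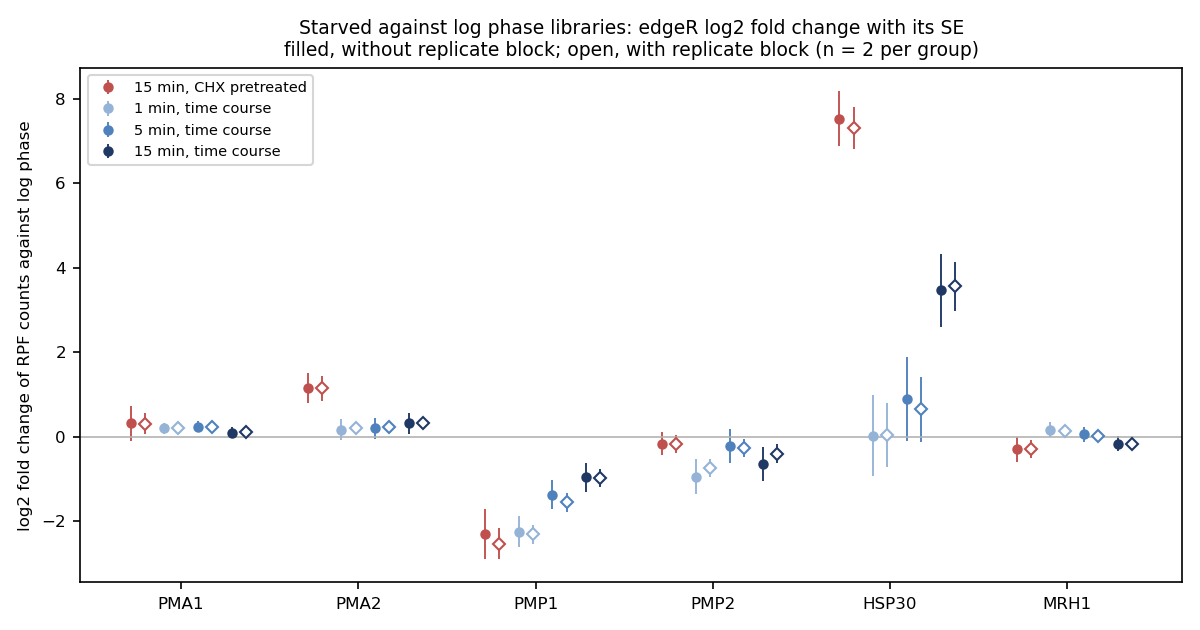
Log2 fold change of RPF counts in starved against log phase libraries with its SE, for the pretreated experiment and for 1, 5 and 15 min of the time course (n = 2 libraries per group), without (filled) and with (open) the replicate block. HSP30 stands at 7.53 in the pretreated experiment and 3.47 at 15 min of the time course, and PMP1 at -2.29 and -0.96.

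The position of ribosomes along the genes is given by the polarity score, which runs from -1 (all reads at the 5′ end) to 1 (all at the 3′ end). PMA1 had polarity scores of 0.21 and 0.26 in pretreated 15 min -Glu, against -0.11 and -0.09 in log phase. MRH1 had 0.11 and 0.12 at 15 min, against -0.13 and -0.23 in log phase. Both genes therefore carried their reads further 3′ after starvation, by 0.33 (SE 0.06) for PMA1 and 0.29 (SE 0.05) for MRH1, where the median shift over 3979 genes was 0.18 and 42% of genes were called (57.3% with the replicate block). The calls rest on the log phase replicates, since 0% of genes were called without log phase replicate 1 and 0.0251% without replicate 2, while the shift stayed at 0.31 to 0.36 for PMA1 and 0.24 to 0.34 for MRH1 with any 1 library left out. HSP30 had -0.31 and -0.28 at 15 min, below the all-gene medians of 0.06 and 0.04 in the same libraries. Only 2.93% and 9.44% of genes with over 25 reads had a lower score than HSP30. Its 9 and 20 log phase reads are too few for a score to be compared. PMP1 scores were 0.06 and -0.44 at 15 min, against -0.20 and -0.28 in log phase, so its replicates spread more than the groups differed. PMP2 scores were -0.09 and -0.22 at 15 min, against -0.28 and -0.19 in log phase, and overlapped.

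In the time course the shifts were smaller. PMA1 scored 0.04 and 0.01 in log phase, 0.12 and 0.07 at 1 min, 0.15 and 0.08 at 5 min, and 0.13 and 0.03 at 15 min. MRH1 scored 0.12 and 0.08 in log phase, 0.23 and 0.14 at 1 min, 0.28 and 0.16 at 5 min, and 0.20 and 0.21 at 15 min. Both MRH1 libraries at each of these times lay above both log phase libraries, and for PMA1 those at 1 and 5 min did. In a limma fit of 488 genes, each above 25 reads throughout, the shifts of PMA1 were 0.07, 0.09 and 0.06 (SE 0.04 each) and those of MRH1 0.08, 0.12 and 0.10 (SE 0.05 each), with adjusted p from 0.123 to 0.414. The medians over all 488 genes were 0.09, 0.08 and 0.06, and 7.17%, 4.3% and 0% of genes were called, among them 0 of the 3 members tested (PMA1, PMA2 and MRH1), while 164, 162 and 126 genes had an unadjusted p under 0.05. With the replicate block, where 35.2%, 36.3% and 23.8% of genes were called, limma called PMA1 at 1 min (adjusted p 0.0302) and 5 min (0.0118) and MRH1 at 5 min (0.0237) and 15 min (0.0455). HSP30 scored -0.54 in the deep 15 min library and -0.55 in the matched CHX library, with 0.578% and 0.645% of genes lower.

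**Figure D4:**
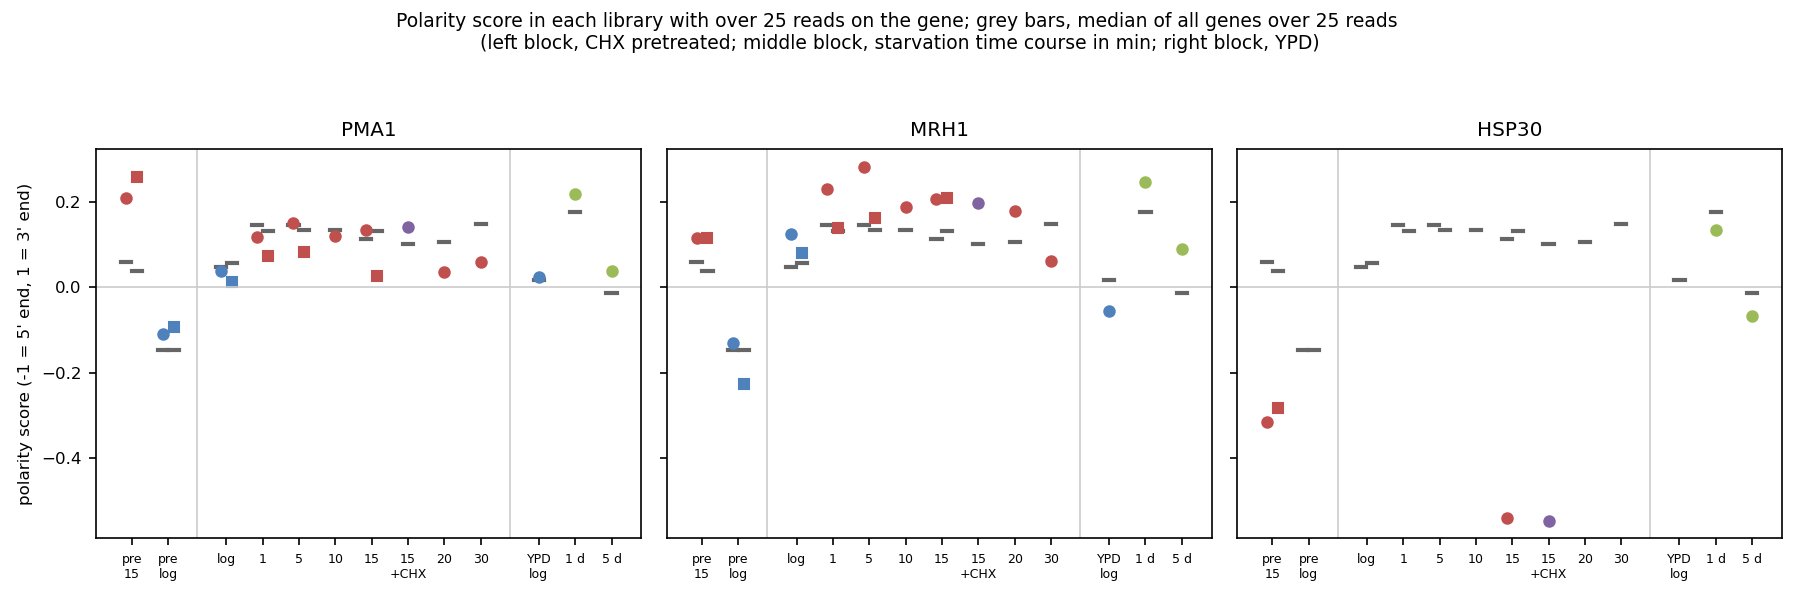
Polarity score of PMA1, MRH1 and HSP30 in each library with more than 25 reads on the gene, with the median of all genes over 25 reads in grey. At 15 min -Glu HSP30 lies at -0.28 to -0.55 in all 4 libraries shown, below the medians of 0.04 to 0.11, whereas PMA1 lies at 0.03 to 0.26.

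After days in YPD the order of the genes turned over. With 1 library per condition there is no replicate check, no test was run, and the intervals cover counting error only. HSP30 had 7 reads (10.7 CPM) in YPD log phase, 1885 reads (3273 CPM) at 1 day and 3473 reads (20484 CPM) at 5 days. The 1 day level was 305-fold that of log phase (95% counting interval 148 to 760) and the 5 day level 6.26-fold that of 1 day (5.92 to 6.62). HSP30 thereby made up 2.05% of all gene reads at 5 days, the ninth gene by TPM. PMA1 had 1.15% of reads in log phase, 0.590% at 1 day and 0.334% at 5 days, or 1.95-fold lower (interval 1.88 to 2.03) at 1 day and 3.45-fold lower (3.17 to 3.77) at 5 days than in log phase. The median log2 difference over all genes with 20 reads in either library was 0.18 at 1 day and -0.93 at 5 days. TMM scaling made the 5 day fall of PMA1 smaller, as given below. Per length, HSP30 stood at 17723 TPM and PMA1 at 1047 TPM at 5 days.

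PMA2 moved against PMA1 at 1 day. It had 5 reads (7.66 CPM) in log phase, 255 reads (443 CPM) at 1 day and 18 reads (106 CPM) at 5 days, so the 1 day level was 57.8-fold that of log phase (interval 24.4 to 179). PMA2 reads were 0.0664% of the pump reads in log phase, 6.98% at 1 day and 3.08% at 5 days. EFT1 and EFT2 together had 472 CPM in YPD log phase, 127 CPM at 1 day and 76.7 CPM at 5 days. At least 4-fold differences in either direction were seen for 28.4% of 3964 genes at 1 day and 41.6% of 3418 genes at 5 days, counting genes with 20 reads in either library. At 5 days 444 genes were higher and 977 lower, but 551 and 589 after TMM scaling. HSP30, PMA2 and PMP2 were past 4-fold at 1 day, and HSP30 and MRH1 at 5 days, where PMA2 had too few reads to be counted. After TMM scaling MRH1 was no longer past 4-fold at 5 days, with a fold of 0.262 over log phase.

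PMP1 and PMP2 went opposite ways at 1 day. PMP1 had 170 CPM in log phase, 297 CPM at 1 day and 212 CPM at 5 days, 1.75-fold higher at 1 day than in log phase (interval 1.37 to 2.24). PMP2 had 331 CPM in log phase, 48.6 CPM at 1 day and 118 CPM at 5 days, 6.81-fold lower at 1 day than in log phase (interval 4.58 to 10.5). PMP1 took 33.9% of the reads on the pair in log phase and 85.9% at 1 day (95% exact binomial interval 80.3% to 90.4%), the reverse of its lower share in pretreated acute starvation. MRH1 had 1813 CPM in log phase, 1420 CPM at 1 day and 318 CPM at 5 days, and its 5 day level was 5.69-fold lower than in log phase (interval 4.33 to 7.62). YRO2, its closest relative at 70.8% of residues, had 33.7 CPM in log phase, 2049 CPM at 1 day and 1327 CPM at 5 days, 60.8-fold and 39.4-fold the log phase level. In acute starvation YRO2 was not called in the time course, with a log2 fold change of -0.19 (SE 0.35, edgeR adjusted p 0.999) at 15 min.

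Polarity at 1 day was 0.22 for PMA1, 0.25 for MRH1, 0.29 for PMA2 and 0.13 for HSP30, where the median of all genes was 0.18. At 5 days it was 0.04 for PMA1, 0.09 for MRH1 and -0.07 for HSP30, with an all-gene median of -0.01. HSP30 thus sat near the median of all genes in both, 36.9% and 36.6% of genes being lower, unlike in the 15 min libraries.

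**Figure D5:**
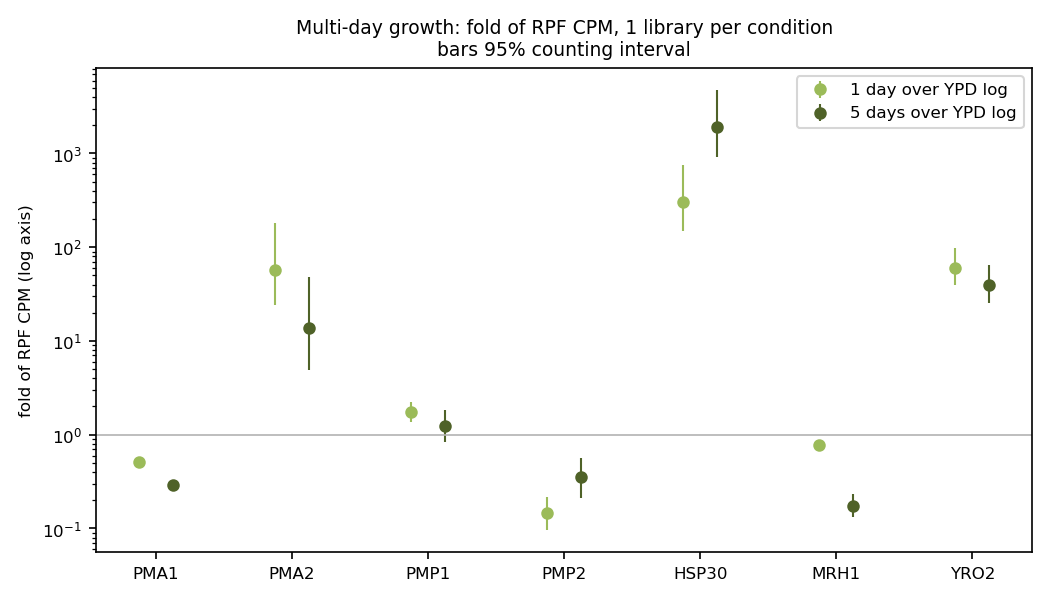
Fold of RPF CPM at 1 day and 5 days over YPD log phase (log axis, 1 library per condition) for the 6 genes and YRO2, with 95% counting intervals. HSP30 reaches 305-fold at 1 day, PMA2 57.8-fold and YRO2 60.8-fold, while PMA1 is 1.95-fold and PMP2 6.81-fold lower.

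Other genes of pump control and of the same membrane were read from lists, which were chosen with earlier results of these data known. None of the 13 pump partners, 11 tested alkali cation transporters and their regulators, 11 other P-type ATPases, 10 tested eisosome and MCC (membrane compartment of Can1) genes or 9 weak acid response genes was called by edgeR at 15 min of the time course, where 0.152% of all genes were called. The list medians on the log2 scale ran from -0.20 for the pump partners to 0.17 for the cation and weak acid lists, where the median of all genes was 0.01. With the replicate block, where 5.56% of genes were called, SPI1, a cell wall protein of weak acid resistance, rose by 3.01 (SE 0.41, edgeR adjusted p 7.68e-11) and SOP4, an ER protein that helps PMA1 leave the ER, fell by 0.87 (SE 0.21, adjusted p 0.00187).

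In the pretreated libraries, where 12.7% of 5090 genes were called, 3 of the 13 pump partners were called, all lower, and 5 of the 9 weak acid genes, all higher. As the lists were chosen with earlier results known, these counts are a description and no independent support. The partners were EXP1, an ER export receptor of PMA1, at -1.29 (SE 0.23), SOP4 at -1.01 (SE 0.23) and PSG1, which helps mature PMA1, at -0.93 (SE 0.23). The weak acid genes were SPI1 at 4.82 (SE 0.41), the carboxylate exporter PDR12 at 2.83 (SE 0.43), PHM8 at 2.70 (SE 0.61), YRO2 at 1.58 (SE 0.33) and YGP1 at 1.23 (SE 0.27). The list medians were -0.40 for the partners and 1.23 for the weak acid genes, against 0.00 for all genes. FMP45, an eisosome domain protein, was called higher by 4.45 (SE 0.85), as were 2 others of its 10 tested list members. The calcium pump PMC1 at 1.07 (SE 0.23) was 1 of 3 other P-type ATPases of 11 called, all higher, and 0 of 10 cation genes was called. With the replicate block, where 31.2% of genes were called, 7 partners (3 higher, 4 lower), 6 weak acid genes, 5 eisosome genes, 9 other P-type ATPases and 2 cation genes were called. Without replicate 2 of 15 min, 3.27% of genes were called (148 higher, 21 lower), and without log phase replicate 1, 6.34%, against 393 higher and 251 lower with all 4 libraries.

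At 1 day the list medians on the log2 scale were 3.16 for the weak acid genes, 1.59 for the cation genes, 1.54 for the eisosome genes, 0.51 for the other P-type ATPases and 0.44 for the pump partners, where the median of all genes was 0.18. SOP4 was 8.30-fold lower and EXP1 4.12-fold lower at 1 day than in log phase, while AST2, a relative of the PMA1 targeting factor AST1, was 11.96-fold higher (interval 6.04 to 27.0). The eisosome protein NCE102 was 3.65-fold higher at 1 day and 43.7-fold higher at 5 days than in log phase. The sodium and phosphate cotransporter PHO89 was 42.3-fold higher at 1 day (interval 32.9 to 55.4).

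Genes with the pattern most like a member were taken by Pearson's r of log2(CPM + 1), centred within each experiment, over the 19 libraries and 5215 genes with at least 20 CPM in 1 library. For HSP30 they were ROQ1 (r = 0.95), SPI1 (0.91), TMA10 (0.90), YPT53 (0.88) and HOR7 (0.88). For PMA1 they were SCP160 (0.97), VAS1 (0.97), ILS1 (0.95), NEW1 (0.94) and STT3 (0.93), and for MRH1 they were ERG1 (0.95), KAE1 (0.94), UTP8 (0.94), PRT1 (0.93) and ARD1 (0.93). The libraries share depth classes and batches, and the multi-day libraries span the widest range, so these values are a description.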

How the data were processed

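RPF libraries of BY4741 were analysed, 19 in all. RNA-seq and glucose readdition samples were not analysed here. The authors deposited raw read counts per gene and a polarity score per gene from their own code, with no scaling between libraries. Time course and multi-day reads were adapter-trimmed (Cutadapt), kept from 17 nt up, mapped with Bowtie to R64, collapsed by molecular identifier and counted with HTSeq. Pretreated fragments were polyadenylated and kept as 28mers. Versions of these tools are not stated. Genes without a listed value were set to 0 reads.

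RPF counts went into edgeR 4.0.16 (TMM scaling, filterByExpr, quasi-likelihood), with DESeq2 1.42.0 as an alternative. Polarity scores went into limma 3.58.1 for genes above 25 reads in each library fitted, all in R 4.3.3. A gene was called at a Benjamini-Hochberg adjusted p under 0.05. The SE of an edgeR log2 fold change is its size over the square root of F. Intervals are exact binomial (Clopper-Pearson) at 95%. TPM used RefSeq R64 coding lengths. The fits were tested on simulated data. Python 3.11.15 with scipy 1.17.1 and biopython 1.88 did the rest.

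Differences between replicates correlated at r = 0.78 to 0.84 over 998 genes between the 4 replicated times of the course, and at 0.43 over 4762 genes between the pretreated groups, so replicate numbers were taken as pairs in the time course, and the block was run as an alternative in both. The authors' sample key gives the number as the sequencing pool for log phase, 1 and 5 min, and the reverse for 15 min. Depth goes with the number too. Per the study's methods, a starved sample and its log phase sample were portions of 1 culture, without saying that the number marks it. The 6 genes and the gene lists were chosen with earlier results of these data known. Genes named are the 6 members, YRO2, list genes called in the 15 min comparisons (4 or fewer per list by p at 15 min of the time course), and 5 genes per pattern search. EFT1, EFT2, other list genes and those of the pretreated and multi-day lists are named as examples chosen after their values were seen. Alternatives were other tests, normalizations, filters, blocks, sets of libraries and leaving out each library.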

Additional observations from a re-analysis of the deposited data

How the results depend on the processing

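With the replicate number as a block, edgeR called 161, 236 and 292 genes at 1, 5 and 15 min of the time course and 237 for the difference of the 15 min effects, and limma called 172, 177 and 116 genes for polarity. Without the block the counts were 0, 0, 8 and 33 for reads and 35, 21 and 0 for polarity. The block changed the calls of PMP1, PMP2, HSP30, PMA1 and MRH1 given above and no other member's. With the pool as the block, 0 genes were called at 15 min.

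For read counts at 1, 5 and 15 min, DESeq2 size factors gave 4, 26 and 14 genes, DESeq2's Wald test 22, 66 and 43, and only the 2 groups compared 9, 3 and 0. No low count filter gave 3 genes at 1 min, 9 at 5 min and 56 for the difference of the 15 min effects, and all 12 time course libraries gave 21 at 5 min. For polarity, over 10 reads gave 10 genes at 1 min and 0 at 5 min, no variance trend gave 14, 0 and 2, and over 100 reads gave 12 at 15 min. The cause was not tested.

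Leaving out 1 library gave 0 to 5, 0 to 42 and 0 to 9 genes at 1, 5 and 15 min, 0 to 66 for the difference, and 0 to 28, 0 to 28 and 0 to 1 for polarity. In the pretreated fits it gave 169 to 758 genes for reads (644 with all) and 0 to 2333 for polarity (1672 with all). The direction turned, with ranges over the libraries left out on the log2 scale, for HSP30 at 1 min (-0.0539 to 0.0949), PMA2 at 1 min (-0.22 to 0.40) and 5 min (-0.13 to 0.43), MRH1 at 5 min (-0.0330 to 0.0845), PMP2 at 5 min (-0.92 to 0.40) and in pretreated cells (-0.37 to 0.0214), and for the difference of HSP30 (-1.89 to 5.55) and MRH1 (-0.31 to 0.0821). For polarity it turned for PMA2 at 1 min (-0.10 to 0.0239) and 5 min (-0.11 to 0.0115) and PMP1 in pretreated cells (-0.20 to 0.30). HSP30 at 1 min was -0.0138 with DESeq2 size factors, -0.0591 with all 12 libraries and -0.11 in DESeq2, and MRH1 at 5 min was -0.0189 with all 12 libraries.

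TMM scaling put the 5 day fold over YPD log phase at 0.431 for PMA1, 1.86 for PMP1 and 0.262 for MRH1, which ended its 4-fold difference. Of the other results for members, 272 without 1 library and 201 under other settings were unchanged. Where tested, this means the same direction and not called in either fit. For fits given without a test it means the same direction and an effect within 1 SE of the main value. The 7 shallow time course libraries limit HSP30 and PMP1, and the multi-day conditions have 1 library each.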
